A study of Mus musculus with 17 samples.

Results

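Yap1, Wwtr1, Tead1, Lats2, Ankrd1, Amotl2, Ajuba, Axl and Crim1 are effectors, regulators and target genes of the Hippo pathway outside the CCN family. They were taken by gene symbol, 9 of the 38293 gene rows measured by RNA-seq in 17 samples of mouse kidney cortex, and all 9 were found. The kidneys were 4 sham and 4 IRI labelled WT, and 4 sham and 5 IRI labelled CCN2 KO, where IRI is ischemia–reperfusion injury and CCN2 is the secreted matricellular protein encoded by Ctgf.

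In the Hippo pathway, the MST kinases phosphorylate the LATS kinases, and the LATS kinases phosphorylate the coactivators YAP (Yap1) and TAZ (Wwtr1) and keep them out of the nucleus. When this brake is released, YAP and TAZ bind the TEAD transcription factors and switch on targets such as Ankrd1, Ctgf, Axl, Amotl2 and Lats2. In kidney tubules the pathway is known for its part in epithelial stretch, dedifferentiation and repair. YAP and TAZ are controlled mainly by phosphorylation and localization, which an mRNA measurement does not see.

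All mice in the 4 groups were males on a C57Bl6/J background, 12 to 14 weeks old, that carried floxed Ctgf alleles and the ROSA26CreERT2 transgene, a Cre expressed in all tissues and activated by tamoxifen. Mice labelled CCN2 KO had 4 injections of tamoxifen in corn oil and mice labelled wild type had corn oil alone, so that genotype and drug cannot be told apart, and surgery followed after a washout of 14 days. IRI mice had both renal pedicles clamped for 25 min and sham mice had the same operation without clamping, and cortex was collected 4 h later. Ctgf, the targeted gene, was not clearly lower under the KO label. Its mean log2 RPKM in sham kidneys was 3.69 ± 0.71 (SD, n = 4) for WT and 3.41 ± 0.58 (SD, n = 4) for CCN2 KO. After IRI it was 4.58 ± 0.51 (SD, n = 4) for WT and 4.23 ± 0.51 (SD, n = 5) for CCN2 KO. The log2 difference was −0.35 between CCN2 KO IRI and WT IRI (limma adjusted p = 0.525) and −0.28 between CCN2 KO sham and WT sham (adjusted p = 0.777). The floxed exon is not named in the sources used here and these values cover the whole gene, so these values alone do not settle whether the labels hold. The study also measured CCN2 mRNA by PCR, which was not analysed here.

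Levels below are the deposited quantile-normalized log2 RPKM (read counts scaled by transcript length and library size), in which 0 is an RPKM of 1 and the lowest value, −3.32, is a floor set at an RPKM of 0.1. Kidneys are called by the codes in their sample titles (32A1, 33C4 and so on). Correlations of all genes tested ran from 0.915 to 0.961 within groups and from 0.856 to 0.953 between groups. One CCN2 KO IRI kidney, 33D6, stood apart from the rest of its group on the first principal component (30.5% of the variance), at −1.73 against 23.4 to 34.3. WT IRI kidneys lay between 40.7 and 48.3 on it and all sham kidneys below −24.7. The code 32 occurred only among sham kidneys, 2 WT and 2 CCN2 KO. The labels do not say what it stands for. Proximal tubule markers summed to an RPKM of 2100 to 3958 in the 17 kidneys, as cortex should give, while adipose, adrenal and papilla markers were all too low to test. The 4 adipose markers nevertheless summed to 16.3 in 1 WT sham kidney, against at most 0.926 in any IRI kidney. In whole cortex, fewer cells of a type and less RNA per cell cannot be told apart.

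The regions just upstream of the RefSeq start sites of these genes are shown first because TEAD factors act through a short DNA motif. RefSeq start sites on GRCm38.p6 were given for 8 of the 9 genes, Tead1 being the exception. For Ankrd1, Amotl2 and Lats2 the 250 bases upstream of these starts lie inside the GENCODE gene spans given below. Windows from 250 bases before to 50 bases after the start were searched on both strands for the TEAD hexamer GGAATG, which reads CATTCC on the other strand. It was found in at least 1 window of all 8 genes, against 16.6% of 27025 genes with such a window and 14.4% of the 9094 of them that were tested here. Most of the members are well-known TEAD targets, and they were picked with results of these data known, so the 8 of 8 is a description and not a test. The AP-1 motif TGANTCA was in none of the 8, against 8.97% of genes. That says only that these letters were not in these windows.

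Ankrd1 and Ajuba had a pair of hexamers each, and their 250 bases upstream of the start are shown 5′ to 3′ on the gene's strand, with each hexamer in capitals. Ankrd1, chr19:36119845-36120094 (minus strand), has its hexamers 210 and 123 bases before the start. Ajuba, chr14:54577662-54577911 (minus strand), has them 186 and 164 bases before the start, both on the strand opposite to the gene.
Ankrd1: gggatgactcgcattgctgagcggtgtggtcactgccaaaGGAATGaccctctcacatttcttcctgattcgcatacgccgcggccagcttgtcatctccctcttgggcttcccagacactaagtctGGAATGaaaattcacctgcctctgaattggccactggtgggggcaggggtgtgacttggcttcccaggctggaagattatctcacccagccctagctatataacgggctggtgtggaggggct
Ajuba: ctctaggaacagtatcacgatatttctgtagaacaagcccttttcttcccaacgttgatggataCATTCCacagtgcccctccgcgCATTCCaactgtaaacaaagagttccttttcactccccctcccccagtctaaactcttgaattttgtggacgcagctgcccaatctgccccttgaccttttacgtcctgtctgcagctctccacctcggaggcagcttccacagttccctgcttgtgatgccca
The other genes with a hexamer upstream are shown by that hexamer and up to 30 bases on each side, in the same writing. They are Wwtr1, chr3:57576011-57576076 (minus strand), Yap1, chr9:8004702-8004767 (minus strand), Amotl2, chr9:102717709-102717774 (plus strand), Axl, chr7:25788931-25788983 (minus strand), and Crim1, chr17:78200139-78200204 (plus strand).
Wwtr1: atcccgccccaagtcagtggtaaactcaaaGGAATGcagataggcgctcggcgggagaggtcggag
Yap1: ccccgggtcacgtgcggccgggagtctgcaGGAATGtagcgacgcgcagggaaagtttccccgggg
Amotl2: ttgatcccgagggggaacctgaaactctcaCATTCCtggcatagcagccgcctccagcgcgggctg
Axl: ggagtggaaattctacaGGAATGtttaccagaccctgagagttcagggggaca
Crim1: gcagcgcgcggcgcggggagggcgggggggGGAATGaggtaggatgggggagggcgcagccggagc
The hexamer lay 136 bases before the start in Wwtr1, 141 in Yap1, 65 in Amotl2, 233 in Axl and 79 in Crim1. In Lats2 it lay 5 bases after the first of its pair of RefSeq starts, and the window of the other start had none.

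**Figure D1:**
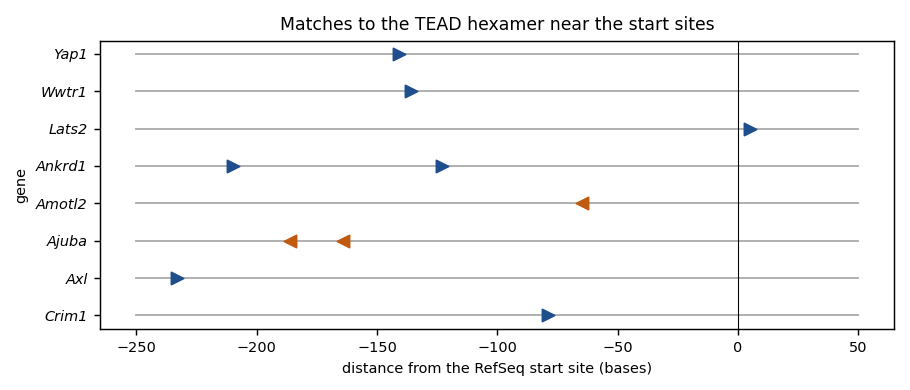
Position of each TEAD hexamer in the 300-base window around the first RefSeq start of 8 genes. The x axis is the distance from the start in bases, grey lines are the windows searched, blue triangles pointing right are hexamers on the gene's strand and orange triangles pointing left are hexamers on the opposite strand. Ankrd1 and Ajuba hold a pair each, and Lats2 is the one gene whose hexamer lies after the start.

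After injury, 7 of the 9 genes rose in WT kidneys and the same 7 rose under the CCN2 KO label: Yap1, Wwtr1, Lats2, Ankrd1, Amotl2, Ajuba and Crim1. None fell in either comparison. Among all 12608 genes tested with limma, 19.5% were called higher and 20.3% lower in WT IRI than in WT sham at an adjusted p under 0.05, and 14.3% were higher and 13.2% lower in CCN2 KO IRI than in CCN2 KO sham. The median difference over the 9 genes was 0.76 log2 units in WT and 0.82 under the KO label, beside −0.05 and −0.02 over all genes. The 9 genes were picked with results of these data known, so these counts and medians are descriptions and not a test. Ankrd1 entered the test only through its IRI values, above log2 0 in 9 of 9 IRI and 0 of 8 sham kidneys, so that it had to differ. Tead1 was above log2 0 in 4 sham and 9 IRI kidneys, and the other 7 genes in all 17. Over all genes the median difference in WT moved with transcript length, from −0.14 in the shortest quartile to 0.04 in the longest. Yap1, Tead1 and Lats2 belong to the longest and no member to the shortest, and the part of length in the rises was not tested.

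**Figure D2:**
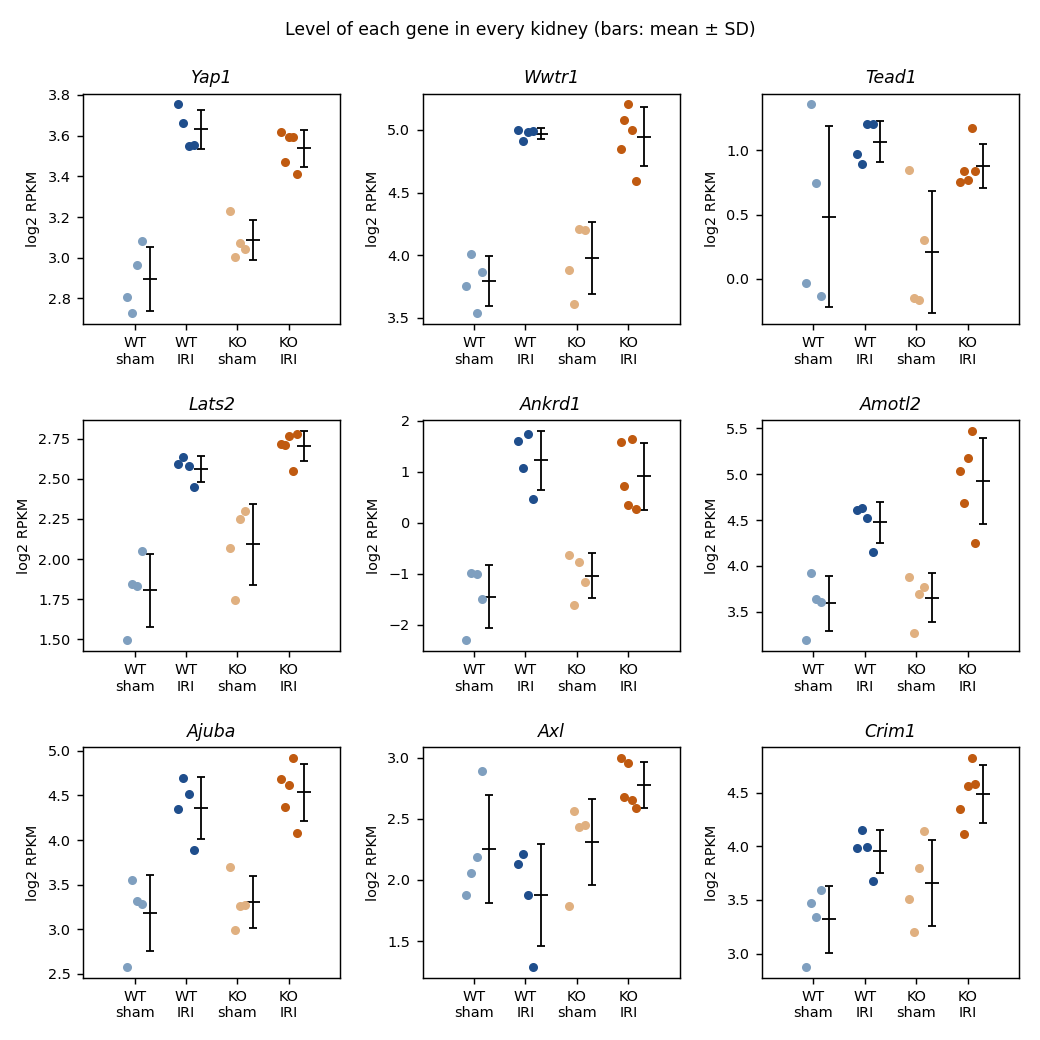
Level of each of the 9 genes in every kidney, in log2 RPKM on axes that differ between panels. Points are kidneys, 4 per group and 5 in CCN2 KO IRI, and black bars are the mean ± SD. In the panels of Yap1, Wwtr1, Lats2, Ankrd1, Amotl2 and Ajuba, all IRI kidneys lie above all sham kidneys of the same label. The share of all genes that separate in this way is not given here.

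Yap1, the coactivator YAP, lies at chr9:7931999-8004596 (GRCm38, minus strand). It measured 2.81, 2.73, 2.96 and 3.08 log2 RPKM in the WT sham kidneys and 3.76, 3.66, 3.55 and 3.56 in the WT IRI kidneys. Under the KO label it measured 3.23, 3.01, 3.07 and 3.04 in sham and 3.62, 3.47, 3.59, 3.59 and 3.41 in IRI. The IRI and sham kidneys did not overlap under either label. Yap1 rose 1.66-fold in WT (log2 difference 0.74, SE 0.09, limma adjusted p = 1.72e-05) and 1.37-fold under the KO label (0.45, SE 0.09, adjusted p = 0.00171). The response under the KO label minus that in WT was −0.29, with a 95% confidence interval of −0.56 to −0.01. This difference passed before adjustment but not over all genes (adjusted p = 0.313). The injured level itself differed by −0.09 between CCN2 KO IRI and WT IRI (interval −0.28 to 0.10).

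Wwtr1, which encodes TAZ, the paralog of YAP, lies at chr3:57455649-57575910 (minus strand). Its WT sham values were 3.76, 4.01, 3.54 and 3.87, and its WT IRI values were 5.00, 4.91, 4.98 and 4.99. CCN2 KO sham kidneys measured 3.88, 3.61, 4.21 and 4.20, and CCN2 KO IRI kidneys 4.85, 5.08, 5.21, 5.00 and 4.60. The 4 WT IRI kidneys had an SD of 0.04, the smallest of any group and gene of the 9, and no IRI kidney overlapped a sham kidney. Wwtr1 rose 2.26-fold in WT (1.18, SE 0.14, adjusted p = 1.23e-05) and 1.96-fold under the KO label (0.97, SE 0.14, adjusted p = 0.000137). After IRI, CCN2 KO and WT kidneys differed by −0.03, with an interval of −0.32 to 0.26.

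Per length, Wwtr1 mRNA was the more abundant of the coactivator pair in all groups, at a geometric mean RPKM of 13.9 against 7.44 for Yap1 in WT sham and 31.4 against 12.4 in WT IRI. Within a kidney, the log2 ratio of Wwtr1 to Yap1 was 0.90 ± 0.30 (SD, n = 4) in WT sham and 1.34 ± 0.11 (SD, n = 4) in WT IRI, a difference of 0.44. Under the KO label it was 0.89 ± 0.30 (SD, n = 4) in sham and 1.41 ± 0.20 (SD, n = 5) in IRI kidneys, a difference of 0.52. Two-sided exact permutation tests gave p = 0.0857 in WT and p = 0.0159 under the KO label, the latter being the smallest p that 5 against 4 kidneys allow. Neither passed after adjustment over the 8 ratio tests made (adjusted p = 0.229 and 0.127, exact permutation tests). Without the kidneys coded 32, the difference under the KO label was 0.26. That left 5 IRI against 2 sham kidneys, too few for the exact test to pass whatever the values.

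Tead1, a DNA-binding partner of YAP and TAZ, lies at chr7:112679318-112906807 (plus strand). It was scattered among sham kidneys, at −0.03, 1.36, 0.75 and −0.14 in WT and 0.85, −0.15, −0.17 and 0.30 under the KO label. After IRI it measured 0.97, 0.89, 1.20 and 1.20 in WT and 0.75, 0.84, 0.77, 1.17 and 0.84 under the KO label. Sham and IRI kidneys overlapped under both labels, since single sham kidneys, 32A2 in WT and 32B4 under the KO label, were as high as injured ones. The differences of 0.58 in WT (SE 0.29, adjusted p = 0.123) and 0.67 under the KO label (SE 0.28, adjusted p = 0.0831) did not pass the test. With kidneys left out 1 at a time, they passed only without 32A2 (limma adjusted p = 0.014) or without 32B4 (0.0304). The adjusted p otherwise reached 0.336 in WT and 0.217 under the KO label. These were the highest sham kidneys of their labels, so leaving them out had to widen the difference. Per length, Tead1 was the scarcer of the pair of TEAD mRNAs high enough to test, with a geometric mean RPKM of 1.4 in WT sham against 7.16 for Tead3.

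Lats2, a kinase that phosphorylates YAP and TAZ and is itself a target gene of theirs, lies at chr14:57689662-57758388 (minus strand). It measured 1.49, 1.84, 1.83 and 2.05 in WT sham and 2.60, 2.64, 2.58 and 2.45 in WT IRI. The CCN2 KO sham values were 2.07, 1.74, 2.25 and 2.30, and the CCN2 KO IRI values 2.72, 2.71, 2.77, 2.55 and 2.78. Injured kidneys lay in a narrow band above all sham kidneys. The rise was 0.76 in WT (SE 0.13, adjusted p = 0.000248) and 0.61 under the KO label (SE 0.12, adjusted p = 0.00189). Among the 9 genes, Lats2 alone differed between the sham groups before adjustment, by 0.29, and its adjusted p was 0.364. In the annotation used here 2955 exonic bases of Lats2, 42.4% of them, are shared with Gm49361 on the same strand. The deposited table has no row for Gm49361, and how the counting treated those bases is not given in the sources used here.

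The ratio of Lats2 to its paralog Lats1 was compared in the same way. Lats1 also rose, by 0.45 in WT (adjusted p = 0.00488) and 0.41 under the KO label (adjusted p = 0.0106). The log2 ratio of Lats2 to Lats1 was −0.73 ± 0.21 (SD, n = 4) in WT sham and −0.42 ± 0.19 (SD, n = 4) in WT IRI. Under the KO label it was −0.45 ± 0.21 (SD, n = 4) in sham and −0.24 ± 0.23 (SD, n = 5) in IRI. The differences of 0.31 and 0.21 did not pass (exact permutation p = 0.114 and 0.238). The labels differed by similar amounts, with CCN2 KO above WT by 0.29 in sham and 0.18 in IRI kidneys. These did not pass either (exact permutation p = 0.114 and 0.238). Lats1 mRNA was the more abundant per length in all 4 group means.

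Amotl2, an angiomotin family scaffold that binds YAP at cell junctions and is also a YAP target, lies at chr9:102716672-102733418 (plus strand). It measured 3.19, 3.93, 3.64 and 3.61 in WT sham and 4.61, 4.63, 4.52 and 4.15 in WT IRI. It measured 3.88, 3.27, 3.69 and 3.77 in CCN2 KO sham and 5.04, 4.69, 5.18, 5.47 and 4.25 in CCN2 KO IRI. Of the 5 CCN2 KO IRI kidneys, 4 were above all 4 WT IRI kidneys and 33D6 was among the WT values. Amotl2 rose by 0.89 in WT (SE 0.22, adjusted p = 0.00445) and by 1.27 under the KO label (SE 0.21, adjusted p = 0.000466). The injured level was 0.45 higher in CCN2 KO IRI than in WT IRI, with an interval of 0.00 to 0.89 and an adjusted p of 0.162.

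Ajuba, a LIM-domain adaptor that binds LATS kinases and holds back their activity, lies at chr14:54567472-54577558 (minus strand). Its values were 2.57, 3.56, 3.32 and 3.29 in WT sham and 4.35, 4.69, 4.52 and 3.89 in WT IRI. They were 3.70, 2.99, 3.26 and 3.27 in CCN2 KO sham and 4.69, 4.37, 4.61, 4.92 and 4.08 in CCN2 KO IRI. No injured kidney overlapped a sham kidney of its label, and the 2 injured groups overlapped each other. Ajuba rose 2.26-fold in WT (1.18, SE 0.22, adjusted p = 0.000579) and 2.34-fold under the KO label (1.23, SE 0.21, adjusted p = 0.000659).

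Ankrd1, a stretch-responsive nuclear protein and one of the most used readouts of YAP activity, lies at chr19:36111961-36120099 (minus strand). It was near the bottom of the scale in sham kidneys, at −2.30, −0.99, −0.99 and −1.49 in WT and −0.63, −1.60, −0.76 and −1.17 under the KO label. After IRI it measured 1.61, 1.08, 1.74 and 0.47 in WT and 1.58, 0.72, 0.36, 1.64 and 0.27 under the KO label. Every injured kidney was above every sham kidney, although the injured kidneys spread over more than 1 log2 unit. Since Ankrd1 was tested only through its high IRI values, this separation and the adjusted p that follow are descriptions and not a test. The difference was 2.67 in WT (SE 0.40, adjusted p = 8.14e-05) and 1.95 under the KO label (SE 0.38, adjusted p = 0.00159), from a geometric mean RPKM of 0.367 to 2.34 and of 0.486 to 1.88. The responses differed by −0.72, with a wide interval of −1.89 to 0.46. Ankrd1 is also made in heart and skeletal muscle, and of 7 striated muscle markers none was high enough to test, with Ckm and Myl2 at the floor in all 17 kidneys. The summed level of the 7 was 0.848 to 2.06 in WT sham and 1.42 to 2.42 in WT IRI, and 0.932 to 1.35 in CCN2 KO sham and 0.94 to 3.3 in CCN2 KO IRI. The widest range was thus in CCN2 KO IRI, and its part in the Ankrd1 rise was not tested.

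Axl, a receptor tyrosine kinase of the TAM family that clears dying cells and marks mesenchymal cells, lies at chr7:25757273-25788705 (minus strand). It did not follow the others. It measured 1.88, 2.06, 2.19 and 2.89 in WT sham and 2.13, 2.21, 1.88 and 1.29 in WT IRI, and these groups overlapped. Under the KO label it measured 1.79, 2.56, 2.44 and 2.45 in sham and 3.0, 2.68, 2.96, 2.66 and 2.59 in IRI, where all injured kidneys were above all sham kidneys. The differences were −0.38 in WT (SE 0.23, adjusted p = 0.211) and 0.47 under the KO label (SE 0.22, adjusted p = 0.125), and neither passed.

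Crim1, a membrane protein that binds BMPs and VEGF and is needed for normal glomeruli in mice, lies at chr17:78200248-78376592 (plus strand). It measured 2.87, 3.47, 3.34 and 3.60 in WT sham and 3.98, 4.15, 4.00 and 3.68 in WT IRI. It measured 3.51, 3.20, 3.80 and 4.14 in CCN2 KO sham and 4.35, 4.11, 4.56, 4.82 and 4.58 in CCN2 KO IRI. The WT groups did not overlap, whereas the KO sham kidney 33B4 was above the lowest KO IRI kidney. Crim1 rose by 0.63 in WT (SE 0.20, adjusted p = 0.0172) and by 0.82 under the KO label (SE 0.19, adjusted p = 0.00423). These had the largest adjusted p of the called rises under each label. The WT call was lost without 32A1 (adjusted p = 0.0675) and without 33C2 (0.0509), and among the kidneys coded 33 neither label passed (0.49, adjusted p = 0.0571, and 0.52, adjusted p = 0.0653). An exonic stretch of 123 bases, 2.05% of Crim1, is shared with Fez2 on the opposite strand, and 116 bases, 1.25% of Yap1, with Gm20416. The library kit keeps strand, but the strand setting of the counting is not given in the sources used here.

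**Figure D3:**
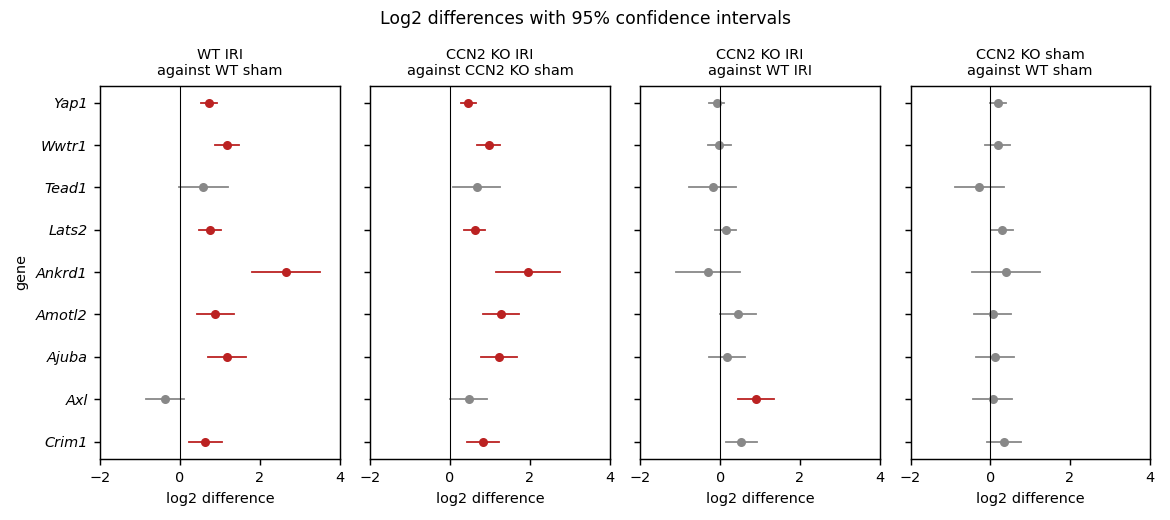
Log2 differences of the 9 genes in 4 comparisons, with 95% confidence intervals from limma. Red marks an adjusted p under 0.05 and grey the rest. Red intervals fill 7 of 9 rows in both IRI against sham panels, Axl alone is red between the injured groups, and no gene is red between the sham groups.

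Between the injured groups, Axl was the one gene of the 9 that passed. All 5 CCN2 KO IRI kidneys, 2.59 to 3.0, were above all 4 WT IRI kidneys, 1.29 to 2.21. The difference was 0.90 (1.86-fold, SE 0.22, interval 0.44 to 1.36, limma adjusted p = 0.0174). Among all genes 7.19% were higher and 5.07% lower in CCN2 KO IRI than in WT IRI, so 1 of 9 is near the share over all genes. The call rested in part on WT IRI kidney 33C4, without which the difference was 0.70 and the adjusted p 0.0778. As a difference of the responses to injury, Axl gave 0.84 (interval 0.17 to 1.52), which passed before adjustment and not after (adjusted p = 0.229). Since this comparison, the WT response and the difference of responses use the same WT IRI kidneys, they are not separate lines of evidence.

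Markers of several cell types moved with Axl between the injured groups, 2 of which, endothelium and fibroblasts, are known to express it. The 5 endothelial markers summed to an RPKM of 9.79 to 24.4 in WT IRI and 23.7 to 34.7 in CCN2 KO IRI, and Cdh5, Pecam1 and Tek passed as higher in the latter. The 5 fibroblast and pericyte markers summed to 5.33 to 13.1 and 16 to 28.5, with Col1a1, Col3a1 and Dcn called higher. In sham kidneys the endothelial sums were 18.6 to 34.4 in WT and 24.4 to 36.6 under the KO label, and the fibroblast sums 12.2 to 23.4 and 12.3 to 23.9. No marker of either list was at the floor in all kidneys. The 4 loop and distal tubule markers moved as well, from 311 to 591 in WT IRI and 765 to 1430 in CCN2 KO IRI, with Slc12a1, Slc12a3 and Umod called higher. The 5 podocyte markers summed to 19.2 to 68.6 and 61.5 to 88.4, with 0 called. The median log2 difference was 1.05 for the loop and distal list and 0.90 for fibroblasts and pericytes. It was 0.82 for endothelium and 0.71 for podocytes, beside 0.02 over all genes tested. Other lists moved less or not at all, with medians of 0.32 for red cells, 0.30 for proximal tubule and 0.10 for collecting duct. Smooth muscle gave −0.08 and leukocytes −0.09, with 0 called in each. The part of any of these cell types in the Axl difference was not tested. Over all genes the median difference between the injured groups also moved with transcript length, from −0.18 in the shortest quartile to 0.09 in the third quartile, to which Axl, Wwtr1, Amotl2 and Crim1 belong, and this part was not tested either.

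The remaining 8 genes did not pass between the injured groups. Crim1 came nearest, 0.53 higher in CCN2 KO IRI (interval 0.14 to 0.93, adjusted p = 0.0702). With code 33 only it passed (limma adjusted p = 0.0232) at the same difference. All injured kidneys are coded 33, so that setting changed only the shared spread and the genes tested. Lats2 differed by 0.14 (interval −0.12 to 0.40) and Ajuba by 0.17 (−0.27 to 0.62). The intervals were widest for Tead1, −0.78 to 0.39, and Ankrd1, −1.12 to 0.50. Over the 9 genes the median was 0.14, beside 0.02 over all genes.

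Between sham kidneys no member passed, and the share of all genes called was 0% in each direction with limma, although 1640 of 12608 genes had an unadjusted p under 0.05. The differences ran from −0.28 for Tead1 to 0.40 for Ankrd1. For the difference of responses no member passed either, beside 0.127% of genes called higher and 0.0555% lower, and at an unadjusted p Yap1 and Axl passed among the 9 and 1884 genes in all.

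The leukocyte marker sums were higher after injury under both labels, and their part in the rises of the 7 genes was not tested. The summed RPKM of the 9 markers was 12.2 to 15.5 in WT sham, 27.9 to 34 in WT IRI, 12.1 to 15.3 in CCN2 KO sham and 23.7 to 34.6 in CCN2 KO IRI. The 5 smooth muscle markers summed to 49.8 to 69 in WT sham and 55.3 to 64.2 in WT IRI, and to 51.1 to 66.5 in CCN2 KO sham and 45.1 to 71.1 in CCN2 KO IRI.

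The other genes of the pathway were read from 4 lists chosen with earlier results of these data known. Of 14 Hippo kinases and their cofactors, all tested, 8 rose and 3 fell in WT, and 8 rose and 1 fell under the KO label. Over all genes tested, 19.5% were called higher and 20.3% lower in WT, and 14.3% higher and 13.2% lower under the KO label. The median of the list was 0.35 under both labels. Sav1, the scaffold of the MST kinases, rose by 1.60 in WT (adjusted p = 6.88e-06) and 1.07 under the KO label (adjusted p = 0.000421). Mob1a, the coactivator of LATS kinases, rose by 0.84 (adjusted p = 7.25e-05) and 0.76 (adjusted p = 0.000314). Lats1, Lats2, Map4k4, Stk38l and Taok1 also rose under both labels. Map4k2, a MAP4K family kinase, fell by 1.16 in WT (adjusted p = 6.31e-06) and by 0.52 under the KO label (adjusted p = 0.00603). Among the kidneys coded 33 alone, a setting added for the lists after the data were seen, 5 of the 14 rose and 0 fell under the KO label. Between the injured groups 4 of the 14 were higher in CCN2 KO IRI and 0 lower, beside 7.19% and 5.07% of all genes. They included Taok3 (0.56, adjusted p = 0.0173), Taok2 (0.53, adjusted p = 0.0041) and Stk4, which encodes MST1 (0.52, adjusted p = 0.0128). The other was Map4k4 (0.37, adjusted p = 0.0233). Without 33C4 only 1 of the 14 passed, and without 33C3 2 did.

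Of 18 upstream and junctional regulators, 16 were high enough to test, and 5 rose in WT and 6 under the KO label with none falling. Over all genes, 19.5% were called higher in WT and 14.3% under the KO label. Besides Ajuba and Amotl2, the tight junction scaffold Tjp1 rose by 0.34 in WT (adjusted p = 0.0394) and 0.61 under the KO label (adjusted p = 0.00169). Between the injured groups the KIBRA genes Wwc1 (0.66, adjusted p = 0.00756) and Wwc2 (0.58, adjusted p = 0.00453) and Nf2, which encodes merlin (0.45, adjusted p = 0.0186), were higher in CCN2 KO IRI. All 3 act upstream of the LATS kinases, and 3 of 16 stands beside 7.19% of all genes called higher there. Over the alternative settings this count was 2 to 5, and it was 2 without 33C3, 33C4 or 33D6.

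Of the 10 YAP, TAZ, TEAD and VGLL genes, 5 were high enough to test, since Tead2, Tead4, Vgll1, Vgll2 and Vgll3 were not. Yap1 and Wwtr1 rose under both labels, while Tead3 fell by 0.38 in WT (adjusted p = 0.00282) and differed by 0.01 under the KO label (adjusted p = 0.957). Between CCN2 KO sham and WT sham, Tead3 gave −0.42, which did not pass (adjusted p = 0.169). Vgll4, a corepressor that competes with YAP for TEAD, was 0.47 higher in CCN2 KO IRI than in WT IRI (adjusted p = 0.0466). This call did not hold: it was lost in 7 of the 9 fits that left out 1 injured kidney (adjusted p of 0.0285 to 0.177 over the 9), without a filter (adjusted p = 0.0803) and without a trended prior (adjusted p = 0.051).

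**Figure D4:**
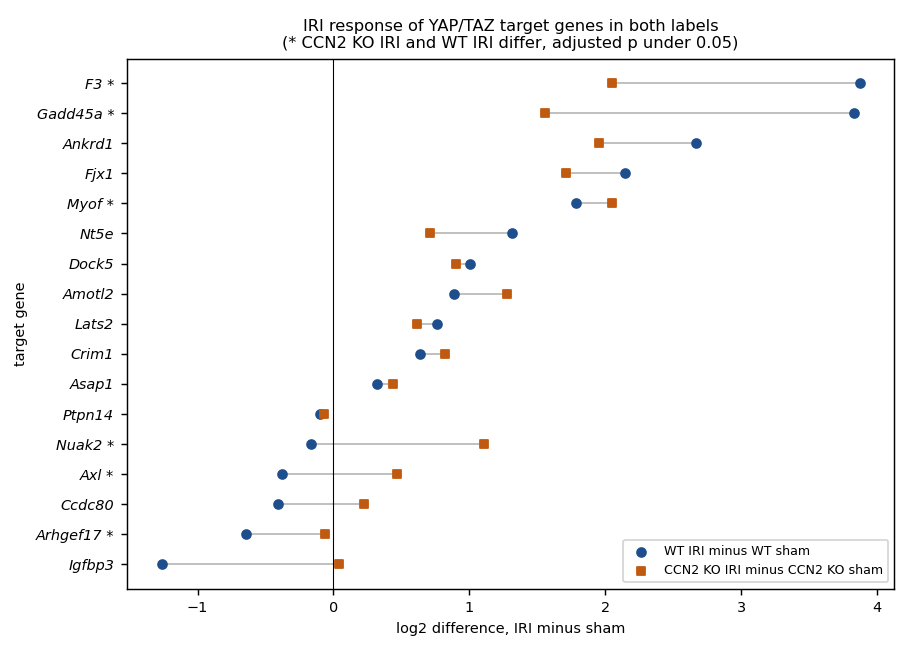
Log2 difference, IRI minus sham, of 17 YAP and TAZ target genes in WT (blue circles) and CCN2 KO (orange squares), joined by a grey line per gene. An asterisk marks an adjusted p under 0.05 between CCN2 KO IRI and WT IRI. F3 and Gadd45a lie at 3.87 and 3.83 in WT and at 2.05 and 1.56 under the KO label, while Axl, Nuak2, Ccdc80 and Igfbp3 have their circle below 0 and their square above it.

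Of 20 genes of a YAP and TAZ target signature, 5 of them members, 17 were tested, and 10 rose in WT and 10 under the KO label. Over all genes, 19.5% were called higher in WT and 14.3% under the KO label. Both counts of 10 include Ankrd1, which was tested only through its IRI values. The median of the list was 0.76 in WT and 0.82 under the KO label. F3, tissue factor, was the target that rose most in WT, from 3.16 to 3.49 in sham to 6.92 to 7.35 after IRI, with no overlap. It rose by 3.87 in WT (adjusted p = 8.51e-07) and by 2.05 under the KO label (adjusted p = 0.000443). The CCN2 KO IRI kidneys reached 3.65 to 6.02 and were all below the WT IRI kidneys, a difference of −1.81 (adjusted p = 0.00585). Gadd45a, a growth arrest gene that p53 also induces, gave 3.83 in WT (adjusted p = 3.07e-06), 1.56 under the KO label (adjusted p = 0.00693) and −1.84 between the injured groups (adjusted p = 0.00933). In both genes the lowest CCN2 KO IRI kidney was 33D6.

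Fjx1, Myof, Dock5, Amotl2, Ankrd1, Lats2 and Crim1 also rose under both labels. Fjx1, the homolog of fly four-jointed, rose by 2.15 (adjusted p = 7.79e-07) and 1.71 (adjusted p = 1.33e-05). Targets thus lay on both sides between the injured groups: Axl, Myof, Nuak2 and Arhgef17 were higher in CCN2 KO IRI, and F3 and Gadd45a lower. Over all genes 7.19% were higher there and 5.07% lower. Nuak2, a kinase of the AMPK family, was the target with the largest positive difference, 1.50 (adjusted p = 0.02), although the groups overlapped. Arhgef17 was 0.73 higher in CCN2 KO IRI than in WT IRI (adjusted p = 0.013). It fell by 0.64 in WT (adjusted p = 0.00687) and gave −0.06 under the KO label (adjusted p = 0.823). Igfbp3, a binding protein of insulin-like growth factors, fell by 1.26 in WT (adjusted p = 0.0213) and gave 0.04 under the KO label (adjusted p = 0.95). No gene of the 4 lists passed between sham groups or for the difference of responses, and F3 (adjusted p = 0.11) and Gadd45a (adjusted p = 0.0981) were the nearest of those named here. Without 33C4 none of the targets passed as higher in CCN2 KO IRI.

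Within groups, some of the genes varied together. Over the 17 kidneys, deviations from the group means correlated at r = 0.895 for Amotl2 and Ajuba, 0.804 for Ankrd1 and Ajuba, 0.74 for Ankrd1 and Amotl2 and 0.722 for Lats2 and Crim1. Yap1 and Wwtr1 had r = 0.0268, and Tead1 and Axl were the most opposed, at r = −0.551. The points share libraries, their normalization and 4 group means, so these are descriptions. The same kidney was often lowest: 32A1 had the lowest WT sham value for 6 of the 9 genes, 33C4 the lowest WT IRI value for 6, 32B5 the lowest CCN2 KO sham value for 7 and 33D6 the lowest CCN2 KO IRI value for 6.

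With predicted genes and the members passed over, the genes most like Yap1 over the 17 kidneys were Got1 (Pearson r = 0.98), Mthfd2 (r = 0.978) and Ube2z (r = 0.975). Those most like Ankrd1 were Igf2bp2 (r = 0.958), Cxadr (r = 0.957) and Hmox1 (r = 0.956). The injury contrast that all these genes share carries much of these values. As deviations from the group means, Got1 gave 0.828, Mthfd2 0.76 and Ube2z 0.799 with Yap1. Igf2bp2 gave 0.716, Cxadr 0.725 and Hmox1 0.75 with Ankrd1.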

How the data were processed

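Poly(A) RNA of kidney cortex was sequenced with a directional kit and single-end reads. Per the labels and methods, reads were aligned to GRCm38 with STAR 2.4.2a and counted with HTSeq-count 0.6.1p1 in union mode. The deposited values are log2 RPKM, computed by the authors with edgeR and then quantile-normalized. They hold no counts, so that the depth per sample is unknown and no counting interval was given. The annotation and strand setting of the counting are not given in the sources used here. Of 30 value columns, 17 matched a labelled sample and 13 that matched none were not used. The study's methods name 1 more CCN2 KO IRI sample than is labelled, and it was not analysed here. The authors' own comparisons in their supplementary tables were not used.

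Genes above log2 0 in at least 4 of the 17 samples were kept (12608 of 38293). A model with 4 group means was fitted with limma 3.58.1 (R 4.3.3, trended prior), two-sided, with Benjamini-Hochberg adjustment over the kept genes and a threshold of 0.05. DESeq2 was not used, since it needs counts. The fit was tested on simulated data. Ratios within a kidney were compared by exact permutation tests in Python 3.11.15. The members and lists were chosen with earlier results of these data known. All 9 members were named, and other list genes only where they passed a test. With predicted genes and members passed over, the 3 genes most correlated with Yap1 and with Ankrd1 were also named. The alternatives were filters, log2(RPKM + 1), centring, 2 groups alone, sample weights, other priors, the title code as a term or 33 only, the last title digit as a replicate block, and leaving out each kidney. The labels do not say outright that each sample was a separate mouse, so p-values measure the spread between these samples. Gene positions are from GENCODE M21 on GRCm38. One gene counted in the lists is not reported here by name.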

Additional observations from a re-analysis of the deposited data

Results flagged for a closer look

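Tead1 in CCN2 KO IRI kidney 33D5 was at 1.17 log2 RPKM, apart from the other kidneys of that group at 0.75 to 0.84 (the gap was 0.788 of the group's range). Axl in CCN2 KO sham kidney 32B4 was at 1.79, apart from the others at 2.44 to 2.56 (0.834 of the range). A sample this far from its group is found by chance in about 1 of 20 groups, and 44 groups were examined with these 2 found.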

How the results depend on the processing

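Depth is unknown, the spread between kidneys alone sets the precision, and Tead1 and Ankrd1, the genes with the lowest mean levels, had the widest intervals. The last digits of the title codes recur across groups, but the labels do not call them replicate numbers, and deviations of the 11 pairs with the same digit correlated at only −0.0941 to 0.0695. With this digit as a replicate block, a setting added after the data were seen, all genes called between the injured groups went from 1546 to 798 and those for the difference of responses from 23 to 0, Crim1 was lost in WT (0.64, adjusted p = 0.0747), and Wwtr1 turned to 0.0727 between the injured groups and to 0.0047 for the difference of responses, neither called. No other call of the 9 genes changed.

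The 7 rises held in WT and under the KO label in all settings except Crim1, lost in WT without 32A1, without 33C2, with the replicate block and with the title code as a term (0.41, adjusted p = 0.107), and under both labels among kidneys coded 33, where Tead1 passed instead. Code 33 only leaves out 32A2 and 32B4, for Tead1 the highest sham kidneys of their labels. Tead1 also passed under both labels with sample weights (0.73, adjusted p = 0.0194, and 0.74, adjusted p = 0.0195). With kidneys left out 1 at a time, members called higher were 6 to 8 in WT, 7 to 8 under the KO label and 0 to 2 between the injured groups. Between the injured groups, members called higher went from 1 to 2 with 2 groups alone, the title code as a term or code 33 only, and to 3 with sample weights, which also turned Wwtr1 to 0.0079. Of all genes, the 1546 called there became 3118 with sample weights and 2572 with code 33 only (351 without 33C4 to 1771 without 33D3). All injured kidneys are coded 33, so code 33 only left the differences between them as they were. CCN2 KO IRI against CCN2 KO sham called 3463 genes, 2203 with the title code as a term and 2122 with code 33 only.

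Between sham groups, the 0 genes called became 1 with 2 groups alone, 6 with sample weights, 5 with code 33 only and 0 to 136 with 1 kidney left out, the highest without 32B5. The difference of responses called 23 genes, 14 without a filter, 38 with the stricter filter, 41 with log2(RPKM + 1), 231 with sample weights, 3 with code 33 only and 7 to 78 with 1 kidney left out (without 33C4 and without 33D3).

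Values that changed sign were never called. Between sham groups, code 33 only gave −0.036 for Ajuba and −0.0961 for Axl, and leaving out 1 kidney gave −0.489 to 0.0158 for Tead1, −0.0731 to 0.189 for Amotl2, −0.0817 to 0.246 for Ajuba and −0.0695 to 0.267 for Axl. For the difference of responses it gave −0.209 to 0.296 for Tead1 and −0.105 to 0.256 for Ajuba, and between the injured groups −0.0908 to 0.062 for Wwtr1. The ratio of Wwtr1 to Yap1 gave 0.4575 in WT with log2(RPKM + 1), which passed before adjustment. It gave 0.2601 under the KO label with code 33 only, where too few kidneys were left for the exact test to pass. Between sham groups it gave 0.0024 and 0.4707 under these settings and −0.117 to 0.1208 with 1 kidney left out. The cause of these changes was not tested.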
